A study of Mus musculus with 9 samples.

Results

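A set of 9 genes listed as falling strongly from a low level in testes of *Kpna6*ΔIBB/ΔIBB mice was followed gene by gene across all 9 whole-testis RNAseq samples. The genes are *Sox14*, *Eomes*, *Cd2*, *Klb*, *Tm4sf4*, *Cd164l2*, *Emilin2*, *Sec14l3* and *Gm1968*, out of 32035 genes with transcripts in the deposited files. They were selected on their measured counts and TPM values, with no numeric limit given, and the low level did not hold for every one of them. The comparison of *Kpna6*ΔIBB/ΔIBB with WT testes therefore describes how they were chosen and is given without a test. The stated reason for the choice names no value of the *Kpna6*-/- samples, and the comparison of *Kpna6*-/- with WT was tested. All samples had been seen when the genes were listed, however, and a choice of genes that are high in WT favours a lower value in this comparison too.

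The testes came from male mice on a C57Bl6/N background, 15 weeks old by the sample labels, with 3 WT, 3 *Kpna6*ΔIBB/ΔIBB (hereafter ΔIBB) and 3 *Kpna6*-/- (hereafter KO) samples. *Kpna6* encodes importin α7, an adaptor that binds nuclear localization signals and is carried through the nuclear pore by importin β. In ΔIBB mice exon 2 of the gene is deleted, and the remaining mRNA encodes a truncated protein without the domain that binds importin β. In KO mice a gene trap sits in intron 1, but the study describes another first exon, used in testis, from which full-length transcript is still made, so this line is not a full loss of *Kpna6* in that organ. The labels do not state that each sample came from a separate mouse, and p-values measure the spread between these samples only.

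The 9 genes come from unrelated families. *Sox14* and *Eomes* are transcription factors, *Cd2* is an adhesion receptor of T and natural killer (NK) cells, and *Klb* is a coreceptor for hormone-like fibroblast growth factors. *Tm4sf4* and *Cd164l2* are membrane proteins, *Emilin2* is a glycoprotein of the extracellular matrix, *Sec14l3* belongs to a family of lipid-binding proteins and *Gm1968* is annotated as a long intergenic noncoding RNA. Most of them are best known from tissues other than testis. The testis is made up mainly of germ cells at successive stages, from spermatogonia over spermatocytes to round and elongating spermatids, which are supported by Sertoli cells. In RNA of whole testis, fewer cells of a type and less RNA per cell cannot be told apart.

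The counts on genes were between 24859751 and 31484692 per sample, so that 3 counts, the limit taken here for a count of 0, correspond to between 0.0943 and 0.115 CPM (counts scaled by TMM to a common library size). *Kpna6* itself had 201, 324 and 333 CPM in WT, 81.2, 85.3 and 81.8 CPM in ΔIBB and 247, 249 and 262 CPM in KO testes. Its log2 fold change was -1.79 in ΔIBB testes (adjusted p = 1.94e-05 in edgeR, standard error 0.15), and the value for KO was -0.18 (standard error 0.14, adjusted p = 0.586). Without WT replicate 1 the latter became -0.38 (adjusted p = 0.000343). Genes typical of germ cells marked all samples as testis, with 10 markers of elongating spermatids summing to between 14485 and 21403 CPM. In ΔIBB testes all 10 of these and all 10 markers of round spermatids were lower, against a background of 18.9% of the 18797 genes tested that were called lower in this comparison (adjusted p below 0.05 in edgeR). All 12 Sertoli cell markers were higher, against 17.7% of genes called higher. The log2 fold changes ranged from -0.72 to -0.23 for round spermatid markers, from -0.59 to -0.26 for elongating spermatid markers and from 0.46 to 1.78 for Sertoli cell markers. Of the other marker lists, 1 of 13 spermatogonial genes rose and 1 fell, 1 of 10 spermatocyte genes rose and 2 fell, 3 of 8 Leydig cell genes and 3 of 10 macrophage genes rose, and 3 of 9 peritubular and endothelial genes rose and 1 fell. In KO against WT testes 3 of 12 Sertoli cell markers were higher by edgeR, against 0.889% of genes called higher. The count was 3 with DESeq2 and 1 with limma on log2(TPM + 1), and the log2 fold changes ranged from 0.06 to 0.62. In the same comparison 1 of 13 spermatogonial genes was lower, against 0.712% of genes called lower. Of the 10 round and 10 elongating spermatid markers 0 were called there. The part of the shifts in either line in the values of the 9 genes was not tested.

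Per transcript length, on the scale of TPM (which divides by transcript length and by the total of the library), the 9 genes spanned a wide range in WT testes. *Cd164l2* was highest with 11.2 ± 2.54 TPM (SD, n = 3), followed by *Gm1968* with 8.38 ± 2.44 TPM, *Emilin2* with 7.72 ± 2.12 TPM and *Tm4sf4* with 3.22 ± 1.15 TPM. *Sec14l3* had 1.49 ± 0.463 TPM, *Cd2* had 1.31 ± 0.167 TPM, *Sox14* had 0.828 ± 0.502 TPM, *Klb* had 0.769 ± 0.161 TPM and *Eomes* had 0.444 ± 0.105 TPM. In this order *Gm1968* and *Emilin2* differed by less than 1 SD, and so did *Sec14l3* and *Cd2*, *Cd2* and *Sox14*, and *Sox14* and *Klb*, with the larger SD of each pair. The median WT level of the genes tested was 8.89 TPM. *Cd164l2* lay above it and the other 8 genes below, so a low level did not hold for the summed transcripts of *Cd164l2* on this scale. That sum takes in the noncoding Cd164l2-204 of 406 bases, with 24% of the WT counts, beside the coding Cd164l2-201 of 986 bases. Division by length gives the counts of a short transcript more weight, and the rank of Cd164l2-201 alone was not examined. In CPM, which is not divided by length, the median was 13.2 CPM and *Emilin2*, with 23.6 CPM, was the one above it. *Emilin2* had by far the most counts of the 9, with 2082 over the 3 WT samples, and the other 8 had between 52.4 and 283. In the edgeR fit of ΔIBB with WT all 9 genes passed the filter on low counts, but *Sox14*, *Cd2* and *Gm1968* had under 10 counts in every ΔIBB sample and passed through their WT samples. In the fit of KO with WT the same holds for *Sox14*, which had at most 1 count in a KO sample. *Eomes* reached 10 counts in ΔIBB replicate 3 only, with 12.1, so it too needed its WT samples to pass in the fit of ΔIBB with WT. In the fit of ΔIBB with KO, *Cd2* and *Gm1968* passed through their KO samples. No gene other than the 9 shared 95% or more identity over 100 bases with them among the transcripts of the files.

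To show the DNA at which transcription of these genes starts, the bases upstream of the start are given for 3 of them. These are *Sox14*, which had the largest fold change, *Klb*, the other gene called lower in KO testes, and *Cd164l2*, whose counts in KO testes overlapped those in WT. The sequences are from RefSeq on GRCm38.p6, 5′ to 3′ on the strand of the gene, and end just before the first start of RefSeq or of the main transcript. The *Sox14* window is chr9:99876171-99876420 on the minus strand, the *Klb* window is chr5:65348161-65348313 on the plus strand and the *Cd164l2* window is chr4:133220559-133220808 on the plus strand. Capitals mark matches to the short motifs named below.
Sox14: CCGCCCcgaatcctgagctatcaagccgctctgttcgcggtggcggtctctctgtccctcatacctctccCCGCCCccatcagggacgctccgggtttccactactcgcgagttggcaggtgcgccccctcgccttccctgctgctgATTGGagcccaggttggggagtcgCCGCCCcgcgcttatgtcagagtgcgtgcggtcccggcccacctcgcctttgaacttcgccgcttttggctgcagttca
Klb: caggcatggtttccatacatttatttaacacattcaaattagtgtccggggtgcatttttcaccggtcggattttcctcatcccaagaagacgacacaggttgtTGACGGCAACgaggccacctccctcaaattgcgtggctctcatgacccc
Cd164l2: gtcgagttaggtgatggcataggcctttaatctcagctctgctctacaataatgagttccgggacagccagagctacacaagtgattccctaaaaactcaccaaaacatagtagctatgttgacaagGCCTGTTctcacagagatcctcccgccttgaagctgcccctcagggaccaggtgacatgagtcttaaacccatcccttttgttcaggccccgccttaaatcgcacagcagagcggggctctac

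The RefSeq windows of 300 bases, of which 250 lie upstream of the start, were searched on both strands for 8 motifs. A window was found for 8 of the 9 genes, and *Cd2* had none. The CCAAT box, CCAAT, was in the windows of *Eomes*, *Sox14* and *Tm4sf4* and in 37.4% of all 32851 windows. The Sp1 GC box, GGGCGG, was in those of *Sox14* and *Emilin2* and in 35.7% of all windows. The cAMP response element core motif, TGACG, was in those of *Klb*, *Emilin2* (downstream of the start) and *Sec14l3*, against 20.8% of all windows. The RFX X-box core motif, GTTGCC, was in those of *Cd164l2* and *Klb*, against 12.5%. In *Klb* the last base of the TGACG match is the first base of the GTTGCC match on the other strand, so these overlap. In *Cd164l2* the GTTGCC match lies downstream of the start and outside the stretch printed, where the capitals mark AACNGNC on the other strand. The MYB site, AACNGNC, was in the windows of *Cd164l2* and *Eomes* and in 32.8% of all windows. The letters of the TATA box, TATAAA, were in that of *Tm4sf4*, downstream of the start, and in 13.6% of all windows, and the full element TGACGTCA (1.79% of all windows) and the T-box core motif AGGTGT (13.7%) were in none of the 8. No motif was in more than 3 of the 8 windows. The *Sox14* window stood out by its composition, with 66% G or C and 26 CpG dinucleotides, against medians of 52.7% and 7 over all windows. These matches describe the sequence only.

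**Figure D1:**
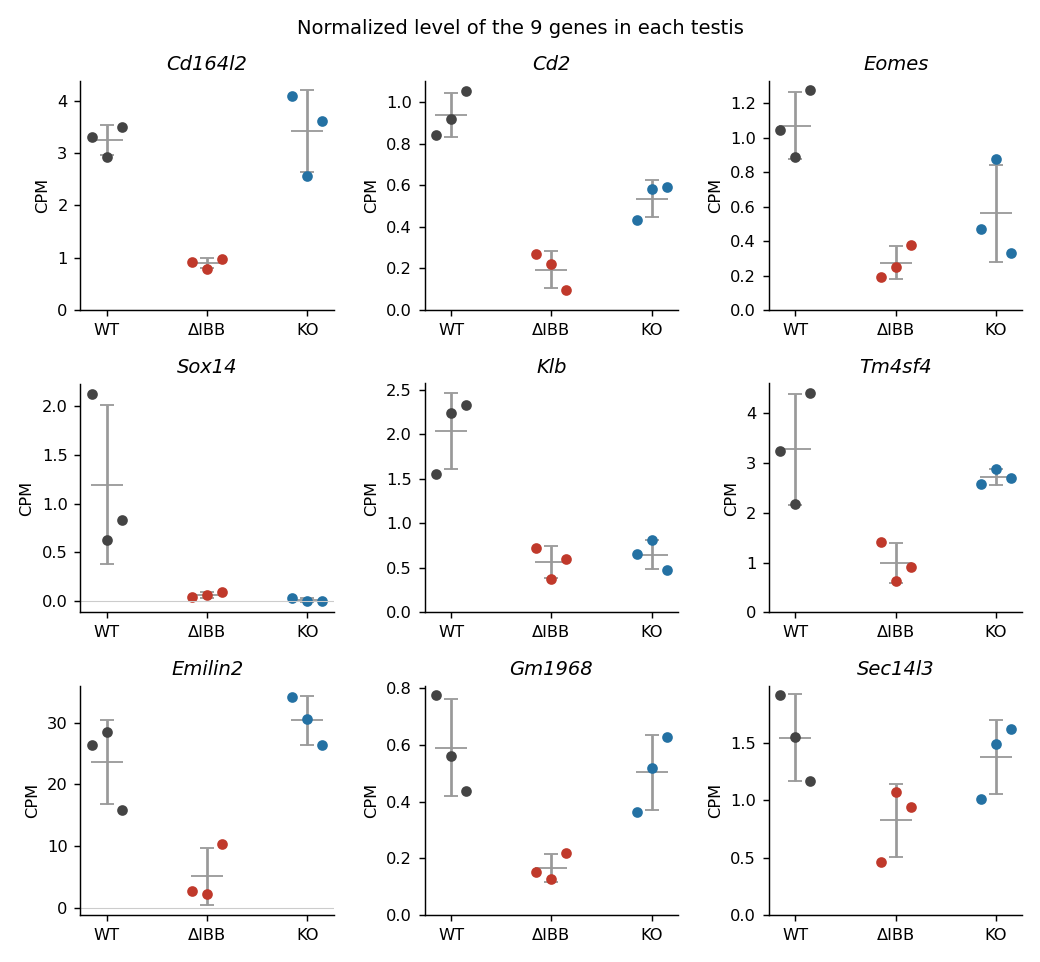
CPM of each of the 9 genes in 3 WT, 3 ΔIBB and 3 KO testes. Points are samples in the order of replicates 1 to 3, the horizontal bar is the mean and the error bar the SD. All 3 ΔIBB points lie below all 3 WT points in each panel, while the KO points lie near the ΔIBB points for *Sox14* and *Klb* and overlap the WT points for 5 genes.

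*Sox14* encodes a transcription factor of the SRY-related HMG box family that is known from the development of interneurons. It lies on chromosome 9 (99874106 to 99876170, minus strand, GRCm38) and consists of 1 exon in its main transcript. The estimated counts were 63, 19 and 23 in WT, 1, 2 and 3 in ΔIBB and 1, 0 and 0 in KO testes. *Sox14* RNA was thus found in each WT testis and was close to or at 0 in each testis of both mutant lines, and WT replicate 1 had the most. The counts in ΔIBB testes were 5.57% of those in WT after scaling for depth (95% exact interval 2.0 to 12.5, for counting error only). The single count in KO testes was 0.98% (0.024 to 5.55). In KO against WT testes *Sox14* was called lower (adjusted p = 0.00354 in edgeR), with a fitted log2 fold change of -6.23 (standard error 0.88) that depends on the fit's handling of counts of 0. It passed the filter on low counts through its WT samples, which also served the choice of the gene. Over the 16 alternatives that gave a value, the adjusted p ranged from 7.23e-06 to 0.158. It was above 0.05 with limma on log2(TPM + 1), and DESeq2 gave *Sox14* no adjusted p. The fitted log2 fold change in ΔIBB testes was -4.08 (standard error 0.64), and -3.37 without WT replicate 1. Both mutant lines were set against the same WT samples.

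*Eomes* encodes a T-box transcription factor with roles in trophoblast and mesoderm and in effector T and NK cells. The gene is located on chromosome 9 (118478212 to 118486132, plus strand). Estimated counts of *Eomes* were 31.2, 27.2 and 35.1 in WT, 5.03, 8.16 and 12.1 in ΔIBB and 13.1, 27.2 and 9.04 in KO testes. KO replicate 2 reached the count of the lowest WT sample, and the other KO samples were near the ΔIBB range. After scaling, the KO level was 0.333 to 0.876 CPM and the WT level 0.889 to 1.27 CPM, so these groups did not overlap, by a narrow margin. The log2 fold change in KO testes was -0.91 (95% interval -1.67 to -0.14) and did not pass the test (adjusted p = 0.252 in edgeR). In ΔIBB testes it was -1.92 (standard error 0.34).

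The counts of *Eomes* were divided by kallisto mainly between 2 protein-coding transcripts, Eomes-201 and Eomes-202. Eomes-201 held 63.8% of the counts in WT, 36.0% in ΔIBB and 46.0% in KO testes. With Eomes-201 alone the log2 fold change in ΔIBB testes was -2.69 (standard error 0.59), an alternative chosen after seeing the data. At 25.3 counts over 3 samples the division between transcripts in ΔIBB testes rests on few reads.

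Related transcription factors moved in either direction. Of the other T-box genes, 16 were in the files and 13 were tested in ΔIBB against WT testes. *Tbx1* (log2 fold change 1.37), *Tbx3* (0.87) and *Tbx22* (0.61) rose, and *Tbx18* (-1.39), *Tbx15* (-0.75) and *Tbx19* (-0.50) fell by edgeR. With DESeq2 3 fell, and with limma on log2(TPM + 1) 0 fell, while 2 had an unadjusted p below 0.05. These are 3 of 13 in each direction, beside 17.7% of all genes higher and 18.9% lower. Of 19 Sox genes, 15 were tested, of which 5 rose (*Sox4*, *Sox8*, *Sox9*, *Sox12* and *Sox13*) and 3 fell (*Sox5*, *Sox6* and *Sox30*). The closest relative of *Sox14*, *Sox21*, had 1 count or a fraction above it in 1 WT and 1 KO sample and none elsewhere, and was not tested. The 3 Sox genes that fell were abundant, with 127.8 CPM for *Sox6* in WT testes against 87.9 CPM in ΔIBB testes, which is a log2 fold change of -0.54. In KO testes only *Tbx22* among these T-box and Sox genes passed the test, with a log2 fold change of 0.43 (adjusted p = 0.0276 in edgeR), against 0.889% of 18681 genes called higher. The call was lost with limma on log2(TPM + 1) or log2(TPM + 0.1), with length-scaled TPM counts and with the replicate number as a block. It was also lost when WT replicate 3 or any of the KO samples was left out.

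*Cd2* encodes an adhesion molecule on T and NK cells, which binds *Cd48* in mice. It lies on chromosome 3 (101275899 to 101287939, minus strand). Estimated counts reached 25, 28 and 29 in WT, 7, 7 and 3 in ΔIBB and 12, 18 and 16 in KO testes. The 3 groups did not overlap, and the KO samples lay between the others. In CPM the means were 0.940 ± 0.107 in WT, 0.194 ± 0.0896 in ΔIBB and 0.537 ± 0.0884 in KO testes (SD, n = 3). The log2 fold change in KO testes was -0.80 (95% interval -1.43 to -0.17) and did not pass the test (adjusted p = 0.217 in edgeR, and 0.108 to 0.502 over 16 alternatives). In ΔIBB testes it was -2.27 (standard error 0.38).

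Since *Cd2* and *Eomes* are both known from T and NK cells, the levels of 17 other genes of these cells were taken beside them. Their summed level was 22.6 to 27.5 CPM in WT, 25.5 to 26.6 CPM in ΔIBB and 25.2 to 27.1 CPM in KO testes, so the groups overlapped. Of 10 that were tested in ΔIBB against WT testes, 2 rose (*Lck*, log2 fold change 0.45, and *Cd3d*, 0.58) and 2 fell (*Cd247*, -1.24, and *Ccl5*, -1.19). These counts are near the shares over all genes tested, 17.7% higher and 18.9% lower. In KO testes 0 of 10 passed the test in edgeR, DESeq2 or limma, and 3 had an unadjusted p below 0.05 in edgeR. The markers differed widely in level. *Cd3d* had means of 7.22 to 10.8 CPM in the 3 groups, *Cd247* of 3.16 to 7.53 CPM, *Cd8a* of 3.01 to 3.20 CPM and *Lck* of 2.37 to 3.30 CPM. *Cd3e*, a chain of the T cell receptor complex, had 0.371, 0.560 and 0.764 CPM in WT and 0.842, 0.566 and 0.597 CPM in ΔIBB testes. *Cd3g* had at most 0.220 CPM in any sample, and *Ncr1*, a receptor of NK cells, had no count in WT and at most 0.065 CPM elsewhere. The part of T and NK cells in the values of *Cd2* and *Eomes* was not tested. The level of the *Cd2* ligand *Cd48* was 1.61 ± 0.218 CPM in WT and 1.95 ± 0.156 CPM in ΔIBB testes (SD, n = 3, adjusted p = 0.282 in edgeR). Of 15 tested genes of *Cd2* binding and the T cell receptor complex, 5 rose and 2 fell in ΔIBB testes by edgeR. The same shares over all genes stand beside these counts, and 1 fell with DESeq2 or limma. Among the proteins that bind the inner part of *Cd2*, *Cd2ap* (log2 fold change 0.60) and *Cd2bp2* (0.23) rose and *Pstpip1* fell (-0.48).

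**Figure D2:**
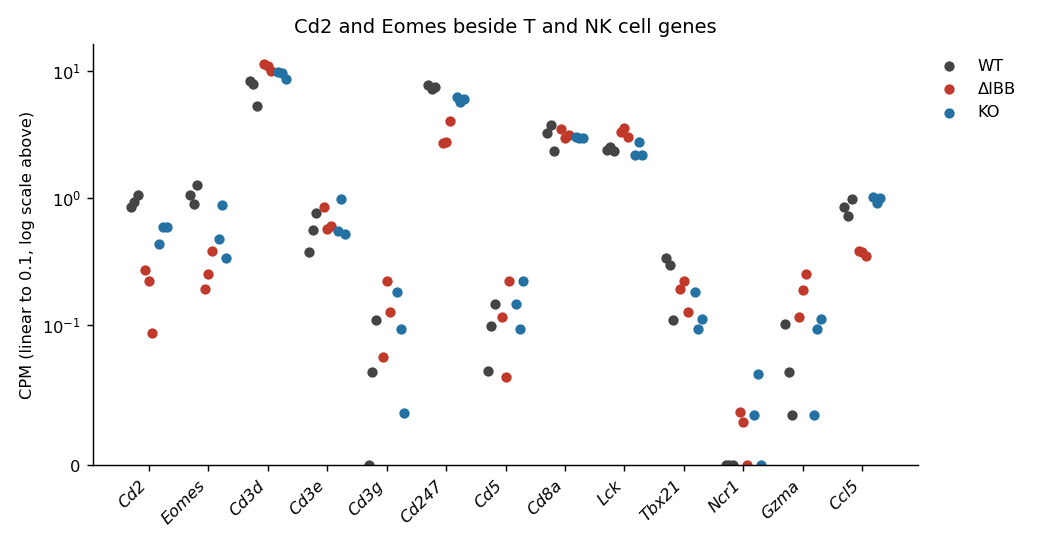
CPM of *Cd2* and *Eomes* and of 11 genes typical of T or NK cells in each testis, on an axis that is linear up to 0.1 and logarithmic above. Points are samples, with 3 per group from left to right in the order of replicates. *Cd2*, *Eomes*, *Cd247* and *Ccl5* show all 3 ΔIBB points below all WT points, whereas *Cd3e* and *Cd8a* overlap and *Cd3d* and *Lck* are higher in ΔIBB.

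*Klb* encodes β-Klotho, which together with fibroblast growth factor receptors forms the receptor for *Fgf21* and *Fgf15*. The gene is located on chromosome 5 (65348314 to 65384007, plus strand). The estimated counts were 46, 68 and 64 in WT, 19, 12 and 19 in ΔIBB and 18, 25 and 13 in KO testes. All 6 samples of the mutant lines were lower than all WT samples, and the mutant lines overlapped. In KO testes *Klb* was called lower, with a log2 fold change of -1.64 (standard error 0.27) and an adjusted p of 0.01 in edgeR. The WT samples of this comparison also served the choice of the gene, which favours a lower value here. The call was lost under 5 of 17 alternatives, among them counts from length-scaled TPM (adjusted p = 0.0795), leaving out WT replicate 3 (0.0518) and leaving out KO replicate 1 (0.0633), and the adjusted p ranged from 0.000495 to 0.145. The fold change in ΔIBB testes was -1.85 on the log2 scale (standard error 0.29). Between the lines it was -0.22 (95% interval -0.98 to 0.55), which leaves room for a difference in either direction.

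The partners of *Klb* did not show the same fall. Of 12 genes of the Klotho and endocrine fibroblast growth factor group other than *Klb*, 10 were tested in ΔIBB against WT testes, 1 rose and 0 fell by edgeR, and 0 fell by DESeq2, limma or an unadjusted p below 0.05. The one that rose was *Lctl*, a relative of *Klb*, from 0.221 to 0.586 CPM (log2 fold change 1.41, adjusted p = 0.0265 in edgeR), and it was not called by DESeq2. *Kl*, the other Klotho gene with a known coreceptor role, had 6.36 ± 0.885 CPM in WT and 5.41 ± 0.454 CPM in ΔIBB testes (SD, n = 3, adjusted p = 0.199). The log2 fold change of *Fgfr1* was -0.02 (adjusted p = 0.856) and that of *Fgfr4* 0.16 (adjusted p = 0.428). The ligand *Fgf21* had 1.51 ± 0.0840 CPM in WT and 1.18 ± 0.258 CPM in ΔIBB testes (adjusted p = 0.246), and *Fgf15* had at most 8.2 counts in any sample.

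*Tm4sf4* encodes a protein with several membrane spans of the L6 family, known from liver and intestine. It lies on chromosome 3 (57425314 to 57441677, plus strand) and has a single transcript in the files. Per sample, the estimated counts were 96, 66 and 121 in WT, 37, 20 and 29 in ΔIBB and 71, 89 and 73 in KO testes. The KO samples fell within the WT range, and the ΔIBB samples were below both other groups. The log2 fold change in KO testes was -0.26 (95% interval -0.74 to 0.22, adjusted p = 0.649 in edgeR). It was -1.74 (standard error 0.32) in ΔIBB against WT and -1.49 (standard error 0.26) against KO testes. Of 4 other genes of the family, 3 were tested and 0 were called in either comparison with WT by edgeR, DESeq2 or limma, and 0 had an unadjusted p below 0.05. Among them *Tm4sf1* had 3.19 ± 0.698 CPM in WT and 2.87 ± 0.229 CPM in ΔIBB testes (SD, n = 3).

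*Cd164l2* encodes a membrane protein related to the sialomucin *Cd164*. The gene is located on chromosome 4 (133212131 to 133224555, plus strand), the chromosome of *Kpna6*, at a distance of 3539.4 kb from it. Estimated counts reached 98, 89 and 96 in WT, 24, 25 and 31 in ΔIBB and 112.9, 79 and 98 in KO testes. Relative to their mean these counts varied the least of the 9 genes within WT, and the ΔIBB samples were at 27.6% of the WT mean in CPM. The log2 fold change in KO testes was 0.07 (95% interval -0.32 to 0.47, adjusted p = 0.894 in edgeR). It was -1.85 (standard error 0.19) in ΔIBB against WT and -1.94 (standard error 0.22) against KO testes. *Cd164* itself had 206.6 ± 6.68 CPM in WT and 205.7 ± 1.61 CPM in ΔIBB testes (SD, n = 3, adjusted p = 0.978).

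The transcripts of *Cd164l2* had close shares in the 3 genotypes. Cd164l2-201, the protein-coding transcript, held 73.8% of the counts in WT, 71.8% in ΔIBB and 74.0% in KO testes. The noncoding Cd164l2-204, which starts farther upstream, held 24%, 25.1% and 22.7%. It shares 93 bases of exon with Gpr3-203 on the other strand, and counting by strand is not stated for these libraries, so reads of these bases cannot be told apart. *Gpr3* had 1.62, 2.34 and 1.53 CPM in WT, 0.765, 0.692 and 1.20 CPM in ΔIBB and 3.44, 2.69 and 3.25 CPM in KO testes. It fell in ΔIBB testes (log2 fold change -1.04, adjusted p = 0.0138 in edgeR) and its value in KO testes was 0.77 (adjusted p = 0.0817). Cd164l2-201 alone, which lies outside that overlap, was at -1.90 (standard error 0.26) in ΔIBB against WT testes.

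*Emilin2* encodes a glycoprotein of elastic fibres in the extracellular matrix. It lies on chromosome 17 (71252172 to 71311978, minus strand) and has 1 transcript in the files. The estimated counts were 784, 865 and 433 in WT, 69, 71 and 330 in ΔIBB and 942, 943 and 712 in KO testes. ΔIBB replicate 3 stood apart from the other samples of its group and lay below WT replicate 3, the lowest WT sample. The KO mean, 30.3 ± 3.91 CPM, was above the WT mean, 23.6 ± 6.83 CPM (SD, n = 3). That difference did not pass the test (log2 fold change 0.36, 95% interval 0.001 to 0.72, adjusted p = 0.335 in edgeR). In ΔIBB against WT testes the log2 fold change was -2.19 (standard error 0.44), and -3.28 without ΔIBB replicate 3. Against KO testes it was -2.55 (standard error 0.38), and -3.65 without that sample.

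ΔIBB replicate 3 also stood apart in 3 of 10 epididymis genes. *Crisp1* had 67.6 CPM in it and at most 4.06 CPM in the other 8 samples. *Adam7* had 17.3 CPM against at most 0.377, and *Spink8* had 24.4 CPM against at most 3.66. The other 7 did not stand apart in this way. *Lcn5*, *Lcn8* and *Gpx5* had no count in that sample, *Defb21* was at 0.566 CPM as in ΔIBB replicate 2 and below all WT and KO samples, and *Cst8*, with 179.9 CPM, was lowest in it of all 9 samples. *Rnase10* and *Pate4* had 5.00 and 0.126 CPM. The summed level of all 10 was 202.9 to 294.9 CPM in ΔIBB, 204.0 to 219.4 CPM in WT and 208.4 to 231.2 CPM in KO testes. The part of this RNA in the higher *Emilin2* count of the same sample was not tested. Of 4 other genes of the EMILIN and multimerin family, all were tested and *Emilin1* rose in ΔIBB testes (log2 fold change 0.39, adjusted p = 0.0225), while *Emilin3* had a log2 fold change of -0.17 (adjusted p = 0.338).

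**Figure D3:**
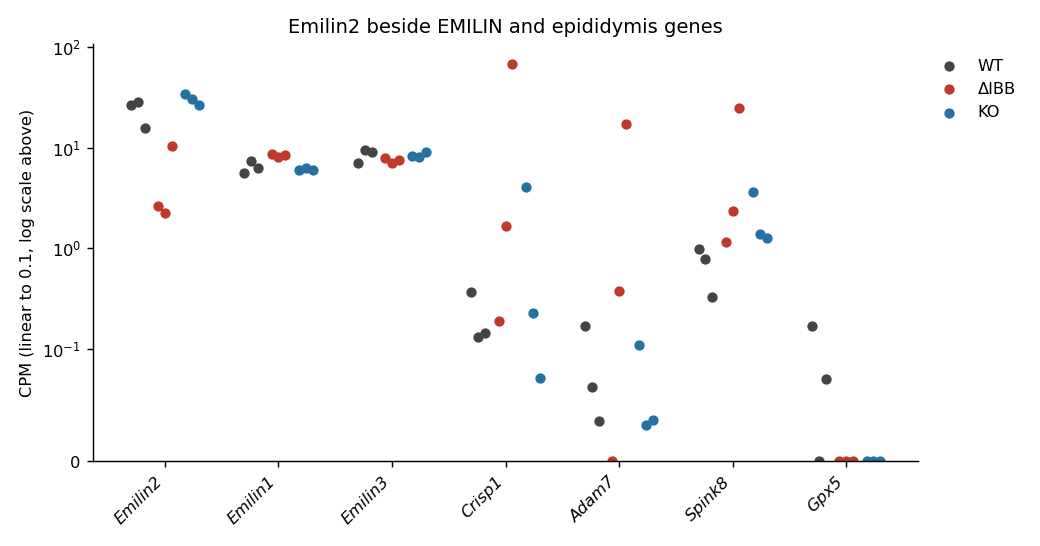
CPM of *Emilin2*, its relatives *Emilin1* and *Emilin3* and 4 epididymis genes in each testis, on an axis that is linear up to 0.1 and logarithmic above. Points are samples, with 3 per group from left to right in the order of replicates. The third ΔIBB sample has 10.4 CPM of *Emilin2* against 2.64 and 2.23 in the others, and 67.6 CPM of *Crisp1*.

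*Sec14l3* encodes a protein with the CRAL-TRIO fold, which binds small lipids, and is known from airway epithelium. The gene is located on chromosome 11 (4064841 to 4077736, plus strand). Per sample, the estimated counts were 57, 47 and 32.1 in WT, 12.1, 34.1 and 30.1 in ΔIBB and 28.0, 46.0 and 44.1 in KO testes. The counts of WT and ΔIBB testes overlapped, and only after scaling for depth did the lowest WT sample, with 1.16 CPM, lie above the highest ΔIBB sample, with 1.07 CPM. *Sec14l3* had the smallest fold change of the 9 genes in ΔIBB testes, -0.88 on the log2 scale (standard error 0.32). In KO testes the value was -0.17 (95% interval -0.73 to 0.39, adjusted p = 0.817 in edgeR).

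The counts of *Sec14l3* came from several transcripts, and their division is given here as a description with no test. The protein-coding Sec14l3-201 had 35.1, 31.8 and 26.6 counts in WT, 11.8, 33.7 and 30.1 in ΔIBB and 24.9, 38.3 and 42.2 in KO testes, so that all groups overlapped. The other transcripts, mainly the noncoding Sec14l3-203 and Sec14l3-204, together had 21.9, 15.3 and 5.5 counts in WT, 0.3, 0.5 and 0.0 in ΔIBB and 3.1, 7.7 and 1.9 in KO testes. With Sec14l3-201 alone the log2 fold change in ΔIBB testes was -0.36 (standard error 0.31). With counts made from TPM scaled by mean transcript length it was -1.78 (standard error 0.35). The fold change of *Sec14l3* thus depended on how the counts of its short noncoding transcripts were weighted. Of 9 related genes, 8 were tested and *Sec14l2* (log2 fold change -0.41, adjusted p = 0.0315) and *Rlbp1* (-1.34, adjusted p = 0.0142) fell in ΔIBB testes. The adjacent gene *Sec14l4* had a log2 fold change of 0.54 (adjusted p = 0.146).

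**Figure D4:**
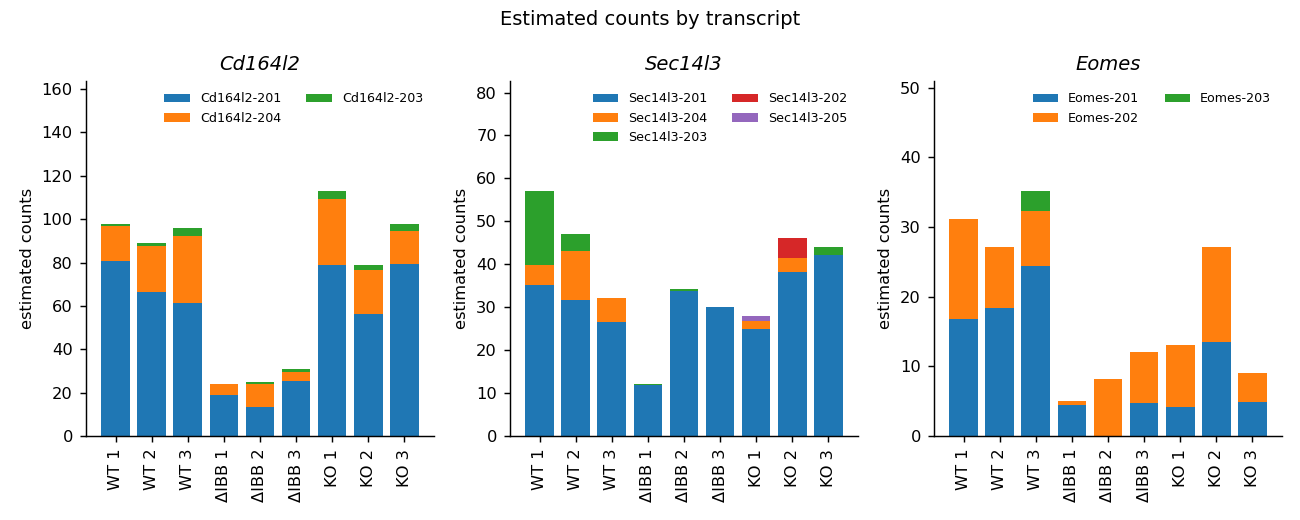
Estimated counts of *Cd164l2*, *Sec14l3* and *Eomes* in each testis, stacked by transcript. The shares of the *Cd164l2* transcripts are alike in all genotypes, whereas the counts of *Sec14l3* transcripts other than Sec14l3-201 are between 5.5 and 21.9 in WT and at most 0.5 in ΔIBB testes.

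*Gm1968* is a long intergenic noncoding RNA gene on chromosome 16 (29957927 to 29979184, minus strand), with 1 transcript of 348 bases in the files. Estimated counts reached 23, 17 and 12.4 in WT, 4.05, 4.10 and 7.06 in ΔIBB and 10.5, 16 and 17 in KO testes. The ΔIBB samples were below all others, and WT and KO testes overlapped. The log2 fold change was -1.80 (standard error 0.42) in ΔIBB and -0.24 (95% interval -1.01 to 0.54, adjusted p = 0.816 in edgeR) in KO testes. Its neighbours in the annotation, *Hes1* at 85200 bases and *Opa1* at 303043 bases, had log2 fold changes of 0.40 (adjusted p = 0.0504) and 0.10 (adjusted p = 0.133) in ΔIBB testes.

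Set side by side, the 9 genes fell into different patterns across the genotypes. In ΔIBB against WT testes all 9 had groups that did not overlap, as did 25.2% of all genes tested in the direction of a lower level. This count follows from the choice of the genes, and nothing is read from it. The log2 fold changes ranged from -4.08 for *Sox14* to -0.88 for *Sec14l3* with a median of -1.85, against a median of 0.009 over all genes tested. In KO against WT testes 4 of 9 genes had lower groups that did not overlap (*Sox14*, *Klb*, *Cd2* and *Eomes*), against 9.86% of all genes. *Sox14* and *Klb* were called, which is 2 of 9 genes, against 0.712% of all genes called lower. Since the WT samples served the choice and *Sox14* passed the filter only through them, this count is a description too. The median of the 9 was -0.26, against 0.002 over all genes. Between the lines, 5 of 9 genes (*Cd2*, *Tm4sf4*, *Cd164l2*, *Emilin2* and *Gm1968*) were lower in ΔIBB than in KO testes with no overlap, against 22.7% of all genes. *Klb*, *Eomes* and *Sec14l3* overlapped, and *Sox14* was not tested because both groups were at or near 0. The values for ΔIBB are descriptions, since these samples served the choice.

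**Figure D5:**
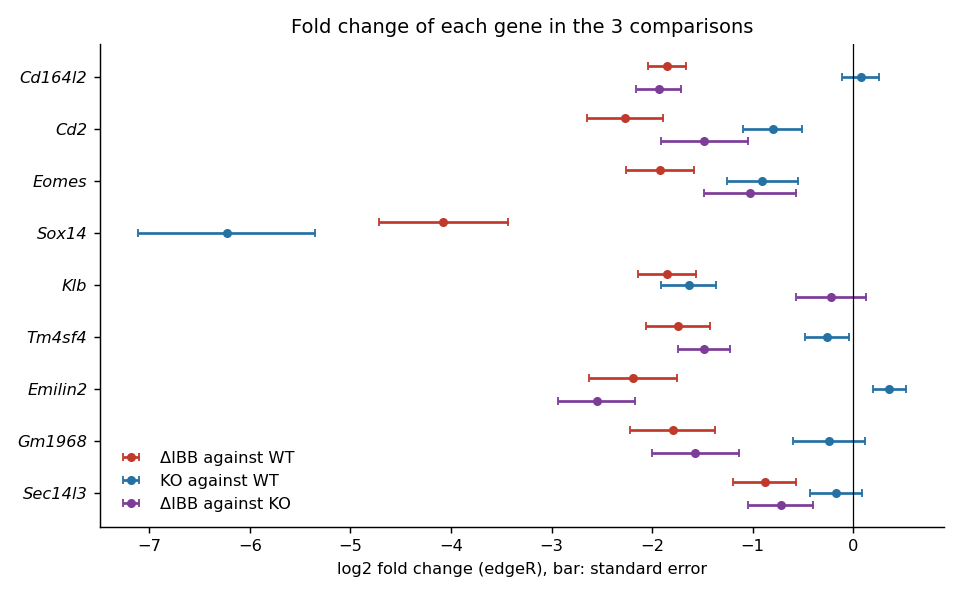
Log2 fold changes of the 9 genes from edgeR with their standard errors, for ΔIBB against WT, KO against WT and ΔIBB against KO. *Sox14* and *Klb* lie far below 0 for KO against WT. *Emilin2* lies above 0 there, *Cd164l2* lies above 0 by less than its standard error, and neither was called. *Sox14* has no value for ΔIBB against KO.

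Genes next to the 9 were compared as well. Of 19 neighbours in the annotation, 14 were tested in ΔIBB against WT testes, 3 fell and 1 rose, beside 18.9% of all genes lower and 17.7% higher. Beside *Gpr3*, those that fell were *Wwtr1* next to *Tm4sf4* (log2 fold change -0.36, adjusted p = 0.00203) and *Golga4* next to *Eomes* (-0.13, adjusted p = 0.0162), and *Map3k6* next to *Cd164l2* rose (0.71, adjusted p = 0.000528). *Lpin2*, which lies 2355 bases from *Emilin2*, had a log2 fold change of -0.06 (adjusted p = 0.415), and *Rpl9*, which lies 4357 bases from *Klb*, had one of 0.03 (adjusted p = 0.608). Over the families and pathways of the members, the lists held 85 genes, of which 70 were tested in ΔIBB against WT testes, 15 rose and 10 fell, with a median log2 fold change of 0.04, beside 17.7% of all genes higher and 18.9% lower. In KO against WT testes 68 were tested, 1 rose and 0 fell by edgeR, and 0 fell by DESeq2 or limma. At an unadjusted p below 0.05 in edgeR 4 of the 68 were higher and 3 lower.

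The genes with the profile most like the mean standardized profile of the 9, by Pearson's r on log2 CPM over the 9 samples, were *Rmdn2* (r = 0.99), *Pnpla8* (0.99), *Hsf2* (0.99), *Ankrd45* (0.99) and *Tmem131l* (0.99). They were abundant and fell less. *Hsf2*, a heat shock transcription factor known from the testis, had 58.1 ± 2.26 CPM in WT, 35.9 ± 1.08 CPM in ΔIBB and 49.4 ± 1.83 CPM in KO testes (SD, n = 3). *Rmdn2* had 128.2 ± 0.751, 89.9 ± 2.12 and 113.3 ± 4.62 CPM in the same order. Of 19049 genes compared, 1242 had an r above 0.9, so a high r over these 9 samples was common. All points share their libraries, and no test was made.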

How the data were processed

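RNA was measured in 9 testes. According to the study's methods, poly(A) libraries were made with the NEBNext Ultra RNA kit, and reads were assigned to mouse transcripts with kallisto (0.45 in the submitters' processing notes). The authors deposited an estimated count, not normalized between samples, and a TPM value for each of 96626 transcripts. Of these, 95301 (98.6%) were assigned to 32035 genes by GENCODE M21 (GRCm38), and both values were summed per gene. Estimated counts were rounded, filtered with filterByExpr (minimum count 10), scaled by TMM and tested over the whole table with edgeR 4.0.16 (quasi-likelihood) in R 4.3.3, with 2 groups in each fit and Benjamini-Hochberg adjustment over all genes tested. With 3 samples a group, an exact permutation test cannot give p below 0.1. The members and the gene lists were chosen with earlier results of these data known, and 1 list gene is not reported here. Genes named are the members, *Kpna6*, list genes, annotated neighbours and the 5 genes with the most similar profile. Similar sequences were sought with blastn 2.17.0+.

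The alternatives were DESeq2 1.42.0, its size factors, scaling by library size only, no filter, a filter of 5 counts in 47% of samples, a replicate block, a single fit of all 9 samples, limma 3.58.1 on log2(TPM + 1) and log2(TPM + 0.1), length-scaled TPM counts, the most abundant transcript only (chosen after seeing the data) and each sample left out. On simulated data for *Kpna6*-/- against WT with 18681 genes, 66 of 100 genes changed by 1 and 97 of 100 changed by 2 on the log2 scale were recovered, with 7 false calls. The simulation gave all genes the same spread between samples and drew the changed genes from a wide range of counts. These rates need not hold for the 9 genes, many of which had few counts. Tables were made with pandas 2.3.3 in Python 3.11.15 and plots with matplotlib 3.10.9.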

Additional observations from a re-analysis of the deposited data

Results flagged for a closer look

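The means of *Emilin2* in the 2 lines lay on opposite sides of the WT mean. Its level was 5.08 ± 4.59 CPM in *Kpna6*ΔIBB/ΔIBB and 30.3 ± 3.91 CPM in *Kpna6*-/- testes (SD, n = 3), a ratio of 5.97 between the means of the lines, with a WT mean of 23.6 CPM. *Kpna6*ΔIBB/ΔIBB replicate 3 had 10.4 CPM against 2.64 and 2.23 CPM in the others, and without it the log2 fold change between the lines went from -2.55 to -3.65. All 3 *Kpna6*ΔIBB/ΔIBB samples were below the WT mean and all 3 *Kpna6*-/- samples above it. The difference was not tested, since the *Kpna6*ΔIBB/ΔIBB samples had served to choose the gene, and the difference of *Kpna6*-/- from WT did not pass the test (log2 fold change 0.36, adjusted p = 0.335 in edgeR). WT and *Kpna6*-/- samples overlapped, and without WT replicate 3, at 15.8 CPM, that value was 0.14.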

How the results depend on the processing

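The fold changes of the 9 genes in *Kpna6*ΔIBB/ΔIBB against WT testes stayed negative under all 17 alternatives, which their choice on these samples favours. Their median, -1.85, became -0.84 with limma on log2(TPM + 1), a scale that shrinks low levels, and against *Kpna6*-/- testes the median of -1.48 became -0.68. When 1 sample was left out, these medians ranged from -1.97 to -1.76 and from -1.63 to -1.32. The same *Kpna6*ΔIBB/ΔIBB samples served the choice, so these ranges are descriptions and add no support to the falls. Leaving out *Kpna6*ΔIBB/ΔIBB replicate 2 turned the small difference of *Klb* between the lines from -0.22 to 0.017, and with single samples left out it ranged from -0.415 to 0.017.

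In *Kpna6*-/- against WT testes 2 of the 9 genes were called. The count was 1 with DESeq2 (473 genes called in all), where *Cd2*, *Eomes*, *Sox14* and *Gm1968* were given no adjusted p. It was 1 with limma on log2(TPM + 0.1) (33 genes in all) and 1 with length-scaled TPM counts (70 genes in all). The count was 0 with limma on log2(TPM + 1), where 32 genes in all were called, against 299 in edgeR. It was between 1 and 2 when 1 sample was left out, and 1 without WT replicate 3 or without *Kpna6*-/- replicate 1. In the family and pathway lists, which leave out the cell type markers, 1 gene was called in this comparison. The count was 2 without a filter on low counts, 0 with limma on either scale and with length-scaled TPM counts, and 0 to 1 when 1 sample was left out. *Kpna6* in the same comparison ranged from -0.382 to -0.059 in those fits and passed the test without WT replicate 1 (-0.38). Beyond the leaving out of samples, the cause of these changes was not tested. Scaling by library size only moved the median of all genes in *Kpna6*ΔIBB/ΔIBB against WT testes from 0.009 to 0.107.

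Samples of different groups share replicate numbers in the labels, but nothing says that these numbers pair them, and over 9 pairs the correlation of their deviations lay between -0.055 and 0.08. With the replicate number as a block 0 genes of the family and pathway lists were called in *Kpna6*-/- against WT testes in place of 1. The number of all genes called went from 299 to 229. No member shared 95% or more identity over 100 bases with another gene, so summing such genes gave no value. The 93 bases shared by Cd164l2-204 and Gpr3-203 are shorter than this limit. Counts of under 10 per sample, as for *Sox14*, *Cd2* and *Gm1968*, limit how finely the mutant levels can be read.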
